A study of Homo sapiens with 6 samples.

Results

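The 31 genes here, grouped as regulators and targets of the tumour suppressor p53, were chosen by name with earlier results of these data known. They comprise 4 regulators of p53 activity and 27 genes listed as its targets, and whether p53 induces each of them was not tested. All 31 had a row among the 24305 gene symbols of the tables, and 30 were tested, since SPATA18 had no count in any library. The cells were DU 145, an established human prostate cancer line that carries mutant p53 and that the series design treats as deficient in homologous recombination repair. RNA was taken after 48 h with talazoparib, an inhibitor of PARP1 and PARP2 (n = 3 libraries), or after 48 h in controls whose label, "DMOS", was read as the solvent DMSO (n = 3). The design names 5, 10 and 20 µM, and the labels do not say which dose was sequenced. The labels do not tie the replicates to separate cultures, and the p-values below reflect variation among 6 libraries that could be purely technical.

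p53 is a transcription factor that is held low by MDM2, a ubiquitin ligase, and its relative MDM4, and that is stabilised when DNA damage kinases phosphorylate it. Active p53 binds paired response elements near genes for cell cycle arrest (CDKN1A), antioxidant defence (sestrins), DNA precursor supply (RRM2B) and cell death, and it also induces MDM2, PPM1D and CCNG1, which act back on it. DU 145 is used as a line in which this transcriptional output is impaired by mutation. Several of these genes also answer to other regulators: SESN2 and GDF15 are known targets of the stress factor ATF4, and GADD45B of NF-kB.

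Total counts ran from 39123997 to 39585727 per library. The epithelial keratins KRT8 and KRT18 stood at 488 to 650 CPM (counts scaled to a common library total, here the raw total) and VIM at 625 to 696, while EPCAM was at 4.45 to 6.54 and CDH1 at 0.608 to 1.74, low for genes that define epithelium. The keratin KRT19 rose from 41.8 ± 4.35 to 91.4 ± 8.01 CPM after TMM scaling (1.13 ± 0.10 on the log2 scale, 0.56 trend-removed as described below). Of 10 markers of other cell types in the table, PTPRC and CD3E had no count in any library. The summed level of the 10 was 52.0 to 55.3 CPM in controls and 84.4 to 86.7 with talazoparib. This rise was carried by CD68, a lysosomal protein also used as a macrophage marker. The collagen marker COL3A1 was also present and fell, from 22.1 ± 1.10 to 16.8 ± 2.89 CPM after TMM scaling (-0.40 ± 0.13 on the log2 scale, -0.43 trend-removed). The part of either gene in the results below was not tested. In bulk RNA, a change in the number of cells of a type and in RNA per cell cannot be told apart. In the values that follow, CPM are scaled by TMM, and log2 fold changes are talazoparib against control from edgeR (quasi-likelihood F test), with p-values adjusted by Benjamini and Hochberg's method over 14452 genes and called at 0.05.

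The members moved in both directions. Of 30 tested, 8 rose (26.7%) and 10 fell (33.3%), against 26.8% of all genes higher and 29.9% lower (56.7% in either direction), so the shares of members called were close to those of all genes. Their median log2 fold change was -0.04, against 0.00 over all genes tested. The control and talazoparib libraries did not overlap for 8 members that were higher and 11 that were lower, or 26.7% and 36.7% of those tested, against 31.6% and 32.8% of all genes (64.4% in either direction). The genes that fell were led by RRM2B, MDM4, PLK2, ZMAT3 and MDM2, and the genes that rose by SESN2, TP53I3, PHLDA3, CDKN1A and GADD45A. Without control replicate 3, 5 members rose and 8 fell. Over all genes, 2622 rose and 3731 fell without that library, in place of 3873 and 4327.

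**Figure D1:**
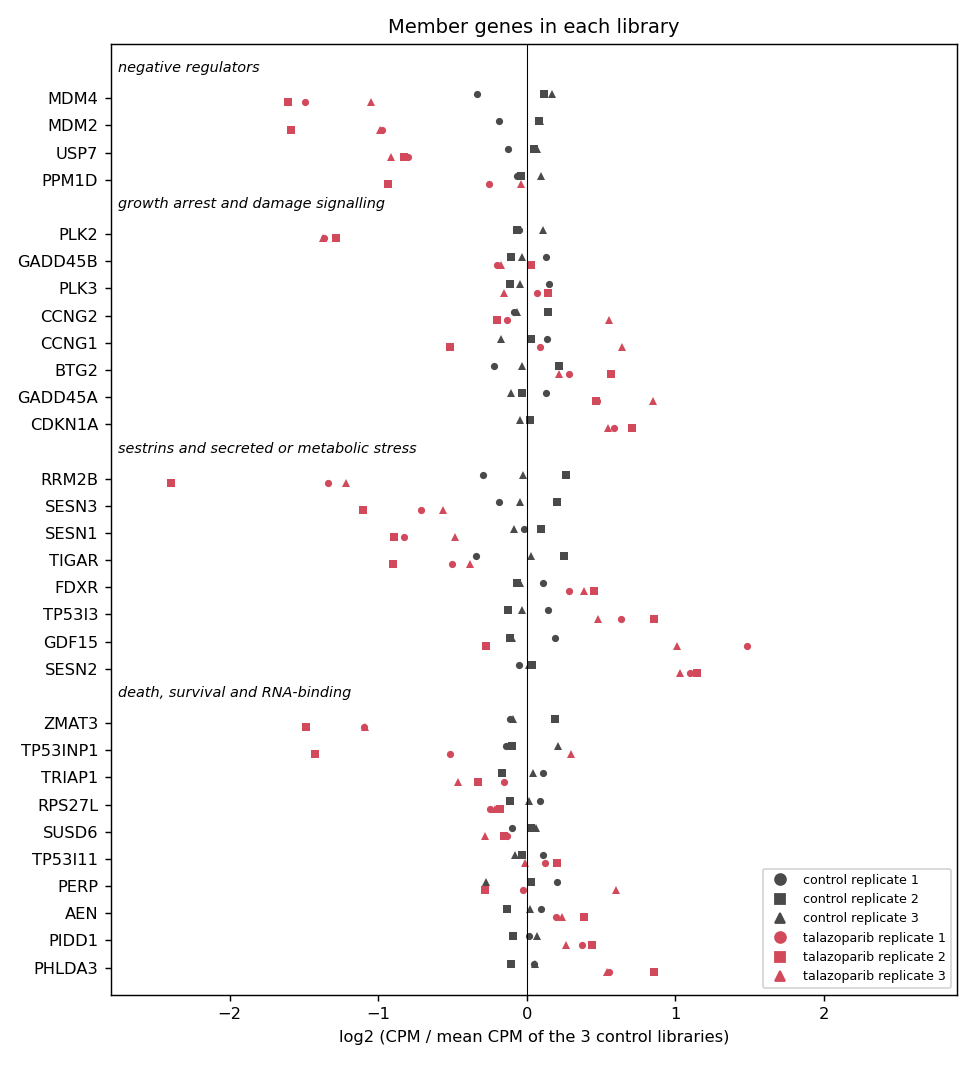
Level of each tested member in each library as log2 of its CPM over the mean of the 3 control libraries (x axis), with genes grouped by role (y axis) and 1 symbol per library. Talazoparib libraries of MDM2, MDM4 and USP7 lie to the left of every control library, those of CDKN1A and SESN2 to the right, and those of CCNG1, CCNG2 and PERP on both sides of 0.

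Calls over all genes differed with the GC content of the transcript, and those of the members did too. The 8 that rose had transcripts of 51.5% to 66.2% GC, and the 10 that fell had 36.4% to 47.2% GC, with no overlap between them. Of 5630 tested genes in the first of these GC ranges, 52.8% rose and 4.88% fell. Of 5442 genes in the second range, 3.86% rose and 59.6% fell. The median deposited gene length was 2876 nt for the members that rose and 7398 nt for those that fell, with overlapping ranges (1352 to 5172 and 1151 to 12793 nt). A second fit therefore removed each library's trend over GC content and length. In that fit, whose values are called trend-removed below, 8 members were higher and 9 lower, against 21.9% and 22.2% of all 13718 genes in it (44.1% in either direction). CDKN1A, SESN2, TP53I3 and GADD45A were higher in both fits, and MDM2, MDM4, USP7, ZMAT3, RRM2B and PLK2 lower in both. No member was called in opposite directions. What the trend reflects was not tested.

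**Figure D2:**
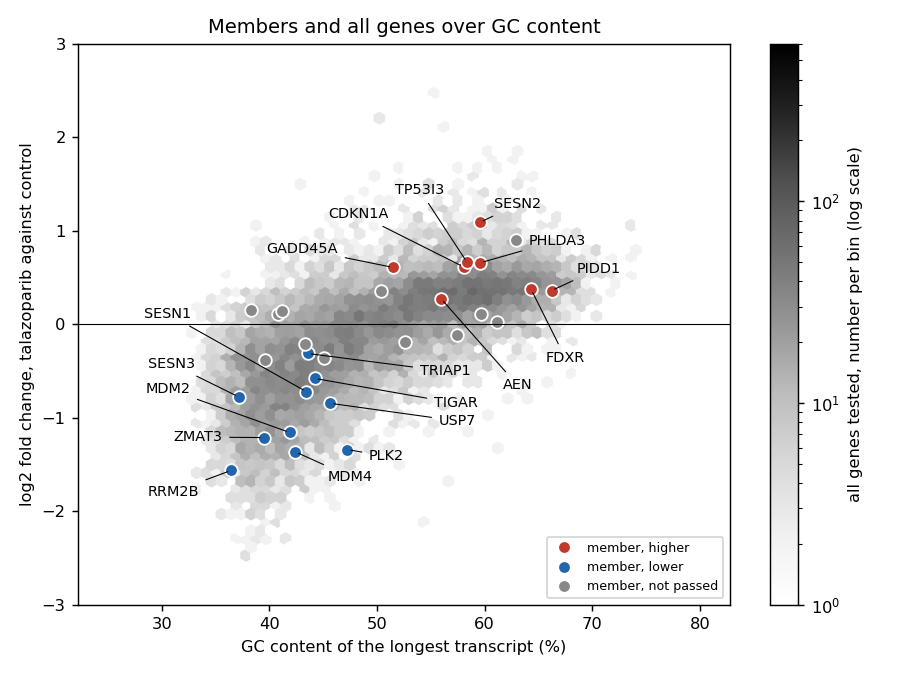
GC content of the longest transcript in % (x axis) against the log2 fold change with talazoparib (y axis), with all genes tested as shaded bins (darker, more genes, log scale) and the 30 members as points coloured by their call. Members called higher lie between 51.5% and 66.2% GC and members called lower between 36.4% and 47.2%, along the band of all genes.

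**Figure D3:**
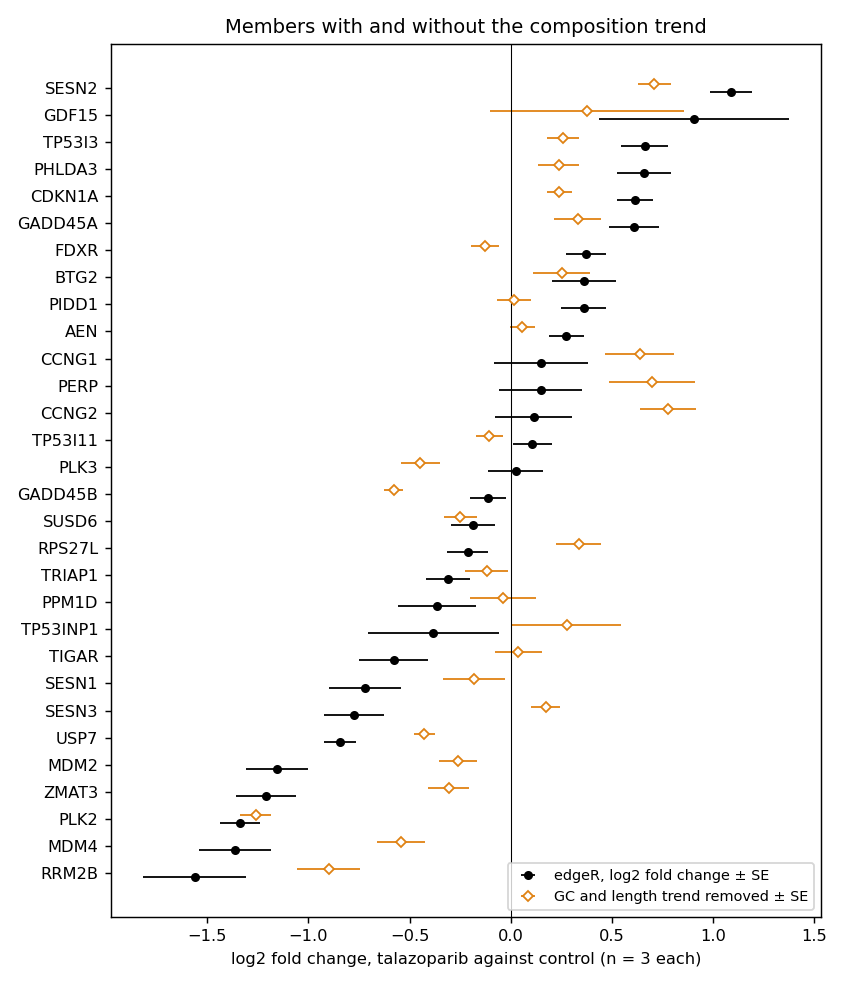
Log2 fold change ± SE of the 30 tested members (y axis, ordered by the first fit) without (filled circles) and with (open diamonds) removal of the GC and length trend, from 3 libraries per group. PLK2 moved little between the fits (-1.34 and -1.26), while MDM2 went from -1.16 to -0.26 and SESN3 from -0.77 to 0.17.

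Sequence near the starts of these genes was set beside their changes, because p53 acts through it. The RefSeq promoter table (GRCh38.p14, 250 bases before to 50 after a start) held 39 windows for 27 of the 31 members; RRM2B, PHLDA3, TP53INP1 and GADD45A were not among them. The p53 response element consensus has 10 bases (3 purines, C, 2 bases that are A or T, G, 3 pyrimidines) and reads the same on both strands. An exact match occurred in 5 of the 39 windows (12.8%), in PLK2, SESN1, RPS27L, AEN and FDXR, against 6.63% of all 35116 windows. By gene this was 5 of 27 members, against 2202 of 27305 genes with a window. Sequence outside the windows was not searched, so a gene without a match here may hold one elsewhere. A run of 20 bases made of a pair of adjoining elements, with C and G kept in each and up to 2 other mismatches, occurred in 3 of the 39 windows (7.69%), all of MDM2 or AEN, and in 0.285% of all windows. That longer motif overlaps the first in AEN. The MDM2 windows that hold it overlap and share the same stretch. Counted by gene, it occurred in 2 of 27 members, against 98 of 27305 genes with a window. The MDM2 match lies before its internal start, in the first intron of the longer transcripts, and MDM2 counts cannot be split by start here. The stretches below are shown because they carry such a match in genes that changed in different directions. Each is written 5′ to 3′ on the gene's strand, with the match in capitals: MDM2 (chr12:68808867-68809016, plus strand), SESN1 (chr6:109008989-109009138, minus strand, before an internal start) and AEN (chr15:88621190-88621325, plus strand).
MDM2: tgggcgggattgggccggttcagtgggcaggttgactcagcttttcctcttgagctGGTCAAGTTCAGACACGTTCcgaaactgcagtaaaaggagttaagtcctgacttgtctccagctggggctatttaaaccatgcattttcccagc
SESN1: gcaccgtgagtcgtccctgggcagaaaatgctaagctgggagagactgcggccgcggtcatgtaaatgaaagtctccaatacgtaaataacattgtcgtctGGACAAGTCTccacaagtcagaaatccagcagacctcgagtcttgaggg
AEN: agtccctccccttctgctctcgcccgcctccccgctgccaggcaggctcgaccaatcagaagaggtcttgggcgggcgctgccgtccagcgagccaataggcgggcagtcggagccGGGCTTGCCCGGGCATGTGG
MDM2, SESN1 and PLK2 fell and AEN and FDXR rose in the same comparison, while RPS27L did not pass. In the trend-removed fit MDM2 and PLK2 stayed lower, SESN1, AEN and FDXR did not pass, and RPS27L was higher. A match to these letters is a description of the sequence and does not show binding.

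The regulators of p53 were lower or did not pass. MDM2, the ubiquitin ligase that marks p53 for degradation (chromosome 12, 68808176 to 68850686, GRCh38 in GENCODE 29), had 38.2, 46.1 and 46.4 CPM in the controls and 22.2, 14.5 and 21.9 with talazoparib. All 3 treated libraries lay below all 3 controls, at 43.6 ± 4.66 against 19.5 ± 4.37 CPM (SD, n = 3 each). The log2 fold change was -1.16 ± 0.15 (SE, edgeR adjusted p = 0.000104), and -0.26 ± 0.09 trend-removed (adjusted p = 0.0419).

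MDM4, which binds p53 and blocks its transactivation domain (chromosome 1, 204516379 to 204558120), had 16.1, 22.1 and 22.9 CPM in controls and 7.24, 6.67 and 9.84 with the drug. The groups were separate, and control replicate 1 was the lowest of the controls. Its log2 fold change was -1.36 ± 0.18 (edgeR adjusted p = 7.27e-05) and -0.54 ± 0.12 trend-removed. USP7, a deubiquitinase that stabilises MDM2 and p53 (chromosome 16, 8892094 to 8964514), had 144, 163 and 165 CPM in controls and 90.6, 88.8 and 83.6 with talazoparib. The treated libraries agreed more closely with each other than the controls did, and the log2 fold change was -0.84 ± 0.08 (edgeR adjusted p = 1.15e-05; -0.43 trend-removed). PPM1D, the phosphatase that reverses damage-induced phosphorylation of p53, had 11.7, 11.9 and 13.1 CPM in controls and 10.3, 6.41 and 11.9 with the drug. Only talazoparib replicates 1 and 2 lay below every control, and PPM1D did not pass (-0.36 ± 0.19, edgeR adjusted p = 0.129; -0.04 trend-removed), though it passed as lower without talazoparib replicate 3 (-0.55).

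**Figure D4:**
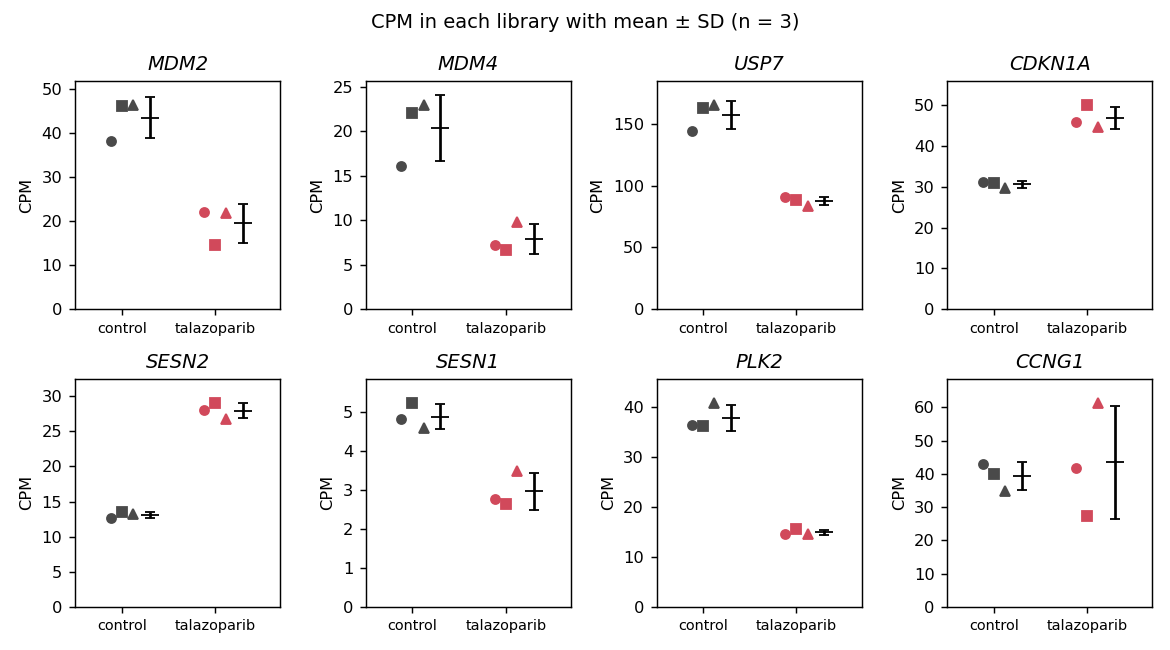
CPM (y axis, from 0) of 8 members in the 3 control (grey) and 3 talazoparib (red) libraries, with the mean and SD beside each group and 1 symbol shape per replicate number. MDM2, MDM4, USP7, SESN1 and PLK2 have all treated libraries below all controls, CDKN1A and SESN2 all above, and CCNG1 spans 27.4 to 61.2 with talazoparib.

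Among targets that restrain the cell cycle, CDKN1A and GADD45A rose and PLK2 fell. CDKN1A, the cyclin-dependent kinase inhibitor p21 (chromosome 6, 36676460 to 36687339), had 31.1, 31.1 and 29.7 CPM in controls and 45.93, 49.97 and 44.73 with talazoparib. Every treated library was above every control, by 1.53-fold, and the log2 fold change was 0.61 ± 0.09 (edgeR adjusted p = 0.000109; 0.24 ± 0.06 trend-removed, adjusted p = 0.00785). GADD45A, a damage-induced partner of stress kinases and PCNA, had 22.1, 19.8 and 18.8 CPM in controls against 28.09, 28.04 and 36.56, the highest being talazoparib replicate 3. Its log2 fold change was 0.61 ± 0.12 (edgeR adjusted p = 0.00132; 0.33 trend-removed). With both the trend removed and the replicate number as a block, GADD45A did not pass (0.32).

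PLK2, a polo-like kinase of centriole duplication and checkpoint signalling (chromosome 5, 58453982 to 58460260), showed the reverse. Its controls were at 36.4, 36.1 and 40.7 CPM and its treated libraries at 14.6, 15.5 and 14.6. This 2.53-fold drop had the smallest adjusted p of the members (-1.34 ± 0.10, edgeR adjusted p = 5.07e-06) and was -1.26 ± 0.08 trend-removed, the member call that moved least in absolute terms between the fits. PLK3, a related stress-activated kinase, was at 10.3 to 12.3 CPM in controls and 9.99 to 12.3 with the drug, and the groups overlapped (0.03 ± 0.14, edgeR adjusted p = 0.883). Trend-removed it was lower (-0.45, adjusted p = 0.00333), and its sign turned negative under total count scaling (-0.05).

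BTG2, an antiproliferative regulator of mRNA decay, had 6.499 to 8.785 CPM in controls and 8.77 to 11.2 with talazoparib and did not pass (0.36 ± 0.16, edgeR adjusted p = 0.0668). It passed as higher without talazoparib replicate 3 (0.43). GADD45B, a paralog of GADD45A, had 148 to 174 CPM in controls and 138 to 162 with the drug (-0.11 ± 0.09, edgeR adjusted p = 0.297). It was lower under total count scaling (-0.19), on FPKM (-0.19) and trend-removed (-0.58, adjusted p = 7.51e-06).

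The G-type cyclins varied more between treated libraries than between groups. CCNG1, which recruits the phosphatase PP2A to MDM2, had 43.0, 40.0 and 34.7 CPM in controls and 41.8, 27.4 and 61.2 with talazoparib. CCNG2, linked to cell cycle exit, had 10.1, 11.8 and 10.3 against 9.76, 9.30 and 15.7. In both genes talazoparib replicate 3 was above every control and replicate 2 below every control, and neither passed (0.15 ± 0.23 and 0.11 ± 0.19, edgeR adjusted p = 0.610 and 0.632). Both were higher trend-removed, at 0.64 and 0.78. Without talazoparib replicate 3 the log2 fold changes were -0.18 and -0.17, and without talazoparib replicate 2 CCNG1 passed as higher (0.39).

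Of the sestrins, which restrain mTORC1 and limit oxidative stress, SESN2 rose and SESN1 and SESN3 fell. SESN2 (chromosome 1, 28259527 to 28282491) had 12.6, 13.5 and 13.3 CPM in controls and 28.09, 29.03 and 26.80 with talazoparib. The treated libraries were 2.13-fold higher and clear of the controls, the largest rise among members past the test (1.09 ± 0.10, edgeR adjusted p = 1.17e-05; 0.71 ± 0.08 trend-removed, adjusted p = 5.78e-05). SESN1 had 4.82, 5.23 and 4.60 CPM in controls and 2.76, 2.63 and 3.50 with the drug. SESN3 had 28.002, 36.77 and 30.92 CPM in controls and 19.5, 14.8 and 21.6 with the drug. Both groups of libraries were separate for each gene, with falls of -0.72 ± 0.18 and -0.77 ± 0.15 (edgeR adjusted p = 0.00428 and 0.000906). Neither fall held trend-removed (-0.18 for SESN1 and 0.17 for SESN3).

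Ratios of related genes within a library do not depend on how libraries are scaled, though they keep any difference in GC content and length. The ratio of SESN2 to SESN1 FPKM (reads scaled for gene length and library total) was 4.62, 4.54 and 5.09 in controls and 17.9, 19.4 and 13.5 with talazoparib. The ratio of SESN2 to SESN3 went from 1.30, 1.06 and 1.24 to 4.15, 5.64 and 3.58, that of PLK2 to PLK3 from 2.48, 2.95 and 3.17 to 1.05, 1.06 and 1.23, and that of GADD45A to GADD45B from 0.151, 0.159 and 0.144 to 0.241, 0.205 and 0.308. These 4 ratios did not overlap between groups. Each gave p = 0.10 by a two-sided exact permutation test, the smallest that 3 against 3 libraries allow (0.15 adjusted over 6 ratios). SESN2 has 59.5% GC against 43.4% for SESN1 and 37.1% for SESN3, and PLK2 has 47.2% against 61.2% for PLK3. Those ratios moved toward the gene with more GC, as all genes did. GADD45A (51.5%) to GADD45B (57.4%) moved the other way. Ratios were not computed trend-removed, and overlap was not counted over other gene pairs. MDM4 to MDM2 (0.515 to 0.601 in controls, 0.397 to 0.561 with the drug) and CCNG1 to CCNG2 (8.14 to 10.3 and 7.09 to 10.3) overlapped, with exact permutation p = 0.40 and 0.90.

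**Figure D5:**
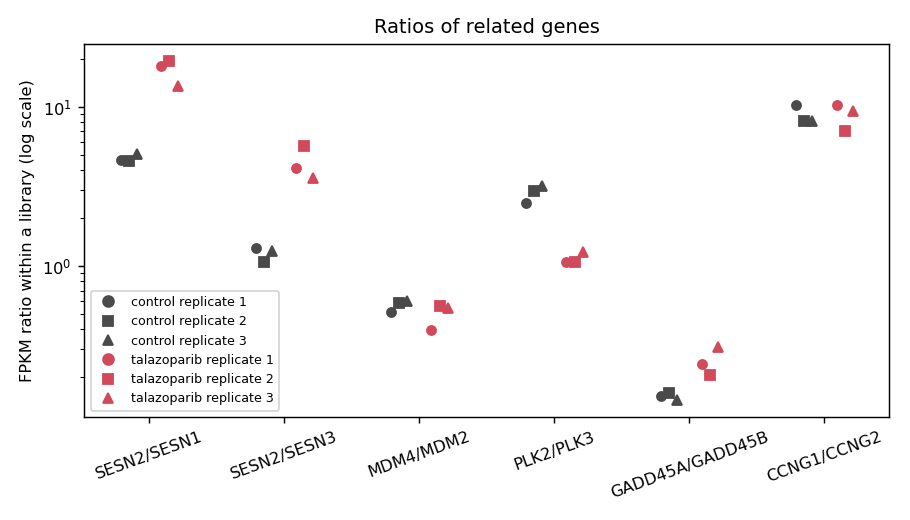
FPKM ratio of 2 related genes in each library (y axis, log scale) for 6 pairs (x axis), controls in grey and talazoparib in red with 1 symbol shape per replicate number. Both SESN2 ratios and the GADD45A to GADD45B ratio are higher in every treated library and the PLK2 to PLK3 ratio is lower, while the MDM4 to MDM2 and CCNG1 to CCNG2 ratios overlap.

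Secreted and metabolic targets differed among themselves. RRM2B, the p53-inducible small subunit of ribonucleotide reductase, had 14.1, 20.9 and 17.0 CPM in controls and 6.85, 3.30 and 7.45 with talazoparib. This was the largest fall among the members, 2.95-fold, with all treated libraries below the controls (-1.56 ± 0.26, edgeR adjusted p = 0.000388; -0.90 ± 0.15 trend-removed). TP53I3, a quinone oxidoreductase, had 27.4, 22.7 and 24.3 CPM in controls and 38.4, 44.9 and 34.5 with the drug. All its treated libraries were above the controls (0.66 ± 0.12, edgeR adjusted p = 0.000470; 0.26 trend-removed, adjusted p = 0.0210). FDXR, which passes electrons to mitochondrial cytochromes, had 26.6, 23.5 and 23.8 against 29.97, 33.60 and 32.10 CPM. It rose by 0.37 ± 0.10 (edgeR adjusted p = 0.00635), but did not pass without control replicate 3 (0.32) or trend-removed (-0.13).

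TIGAR, a fructose bisphosphatase that lowers glycolysis, had 15.5, 23.4 and 20.1 CPM in controls and 13.9, 10.6 and 15.1 with talazoparib. The highest treated and the lowest control library nearly met, and the fall (-0.58 ± 0.17, edgeR adjusted p = 0.0124) did not pass without control replicate 2 (-0.47) or 3 (-0.60), or trend-removed (0.04). GDF15, a secreted stress cytokine, was low, with 11 to 13 counts per control library and 31, 9 and 23 counts with the drug. It did not pass (0.91 ± 0.47, edgeR adjusted p = 0.118) and did so as higher without talazoparib replicate 2 (1.26).

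Among targets in cell death, survival and RNA regulation, ZMAT3, an RNA-binding protein that shapes splicing and mRNA stability, changed most. It had 16.2, 19.9 and 16.4 CPM in controls and 8.201, 6.247 and 8.240 with talazoparib. The groups were clearly separate (-1.21 ± 0.15, edgeR adjusted p = 4.3e-05; -0.31 trend-removed, adjusted p = 0.0290, a call lost with the replicate block added). PHLDA3, which competes with AKT for membrane lipids, had 10.2, 9.17 and 10.3 CPM in controls and 14.5, 17.9 and 14.4 with the drug, a rise of 0.66 ± 0.13 (edgeR adjusted p = 0.00117) that did not pass trend-removed (0.24).

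AEN, an apoptosis-enhancing nuclease, had 83.0, 70.7 and 78.9 CPM in controls and 89.0, 101 and 91.2 with talazoparib. PIDD1, the scaffold of the caspase-2 platform, had 14.9, 13.8 and 15.5 against 19.1, 20.0 and 17.7. Both rose with no overlap between groups (0.27 ± 0.09 and 0.36 ± 0.11, edgeR adjusted p = 0.0169 and 0.0153), by 1.21-fold and 1.28-fold. AEN did not pass without control replicate 2 (0.18) or 3 (0.25) or talazoparib replicate 2 (0.22), PIDD1 not without control replicate 2 (0.28) or 3 (0.36) or talazoparib replicate 1 (0.36), and neither trend-removed (0.06 and 0.02). TRIAP1, a mitochondrial lipid chaperone that limits cell death, had 41.8, 34.4 and 39.9 CPM in controls and 34.7, 30.8 and 28.0 with the drug. Talazoparib replicate 1 overlapped the lowest control, and the fall (-0.31 ± 0.11, edgeR adjusted p = 0.0269) did not pass without control replicate 3 (-0.32) or talazoparib replicate 3 (-0.24), or trend-removed (-0.12).

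The remaining members of this role did not pass. SUSD6 (18.9 to 21.2 CPM in controls, 16.7 to 18.5 treated) and RPS27L, a ribosomal protein paralog (22.8 to 26.3 and 20.8 to 21.8), had separate groups but log2 fold changes of only -0.19 and -0.21. SUSD6 was lower trend-removed (-0.25) and without control replicate 1 (-0.27). RPS27L was lower under total count scaling (-0.28) and higher trend-removed (0.34). TP53I11 stood at 32.1 to 36.7 CPM in controls and 33.6 to 39.2 with the drug. PERP, a desmosomal protein, and TP53INP1, a promoter of autophagy and apoptosis, had wide treated groups (55.4 to 102 and 1.94 to 6.41 CPM) around their controls (55.8 to 77.6 and 4.75 to 6.05). PERP was higher trend-removed (0.70), had a log2 fold change of -0.15 without talazoparib replicate 3 and of 0.00 without control replicate 3, and TP53INP1 passed as lower without talazoparib replicate 3 (-0.90). SPATA18, a regulator of mitochondrial turnover, had 0 counts in each library, which allows a level of up to 0.0767 CPM, for counting error only.

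Libraries within a group were unevenly placed in these genes. Of the 10 members that fell, 7 had their lowest control value in control replicate 1 and 7 their lowest treated value in talazoparib replicate 2. Of the 8 that rose, 5 had their highest control value in control replicate 1 and 7 their highest treated value in talazoparib replicate 2. The same was not counted over all genes tested, so it cannot be called particular to the members. The coefficient of variation over the treated libraries was largest for TP53INP1 (56.5%), GDF15 (52.7%), CCNG1 (39.02%) and RRM2B (38.3%), against 12.2% to 19.5% for the same 3 transcripts other than CCNG1 and 10.7% for CCNG1 in controls.

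Per length, GADD45B was the most abundant member in controls, at 101 ± 5.68 FPKM (SD, n = 3), followed by TRIAP1 at 34.4 ± 2.62 and USP7 at 24.5 ± 2.39. CCNG1, AEN, GADD45A and PERP, at 16.3 to 14.3 FPKM, overlapped between neighbours in that order. CDKN1A was at 10.5 ± 0.354, MDM2 at 3.50 ± 0.457, MDM4 at 1.995 ± 0.403 and GDF15, the lowest of the 30 tested members, at 0.172 ± 0.0164 FPKM. With talazoparib GADD45B remained at 89.2 ± 6.52, CDKN1A stood at 15.2 ± 0.583 and MDM2 at 1.49 ± 0.357 FPKM. These levels rest on the deposited lengths, which exceed the exon bases of the gene in GENCODE 29 for 6 members, TIGAR most (8209 nt against 4017). Exons of 10 members overlap another annotated gene, 9 of them one on the opposite strand. Among these are RPLP2 at PIDD1, FAM228B at TP53I3 and, at MDM2, a gene whose symbol is CPM, not the unit. The strand setting is not given in the sources used here, so such reads cannot be told apart.

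Other genes of the pathway also moved both ways. The further lists below, that of the ATF4 response included, were chosen with earlier results of these data known. Their shares beside those of all genes are therefore descriptive only. Of 23 further regulators of p53 and its activating kinases, 21 were tested, 5 rose and 12 fell, against 26.8% and 29.9% of all genes, with a median log2 fold change of -0.31. Trend-removed, 3 rose and 9 fell, against 21.9% and 22.2% of all genes, with a median of -0.05, and the genes called were not all the same. The damage kinases ATM (-1.89 ± 0.19; -0.81 trend-removed) and ATR (-1.82 ± 0.20; -0.96) and the p53 kinase HIPK2 (-0.97 ± 0.11; -0.48) fell. The acetyltransferase KAT5 (0.48 ± 0.09) and CDKN2A, whose ARF product binds MDM2 (0.43 ± 0.08), rose, and neither passed trend-removed (0.05 and 0.09). CDKN2A counts are for the whole gene and cannot be split by product here. ATM went from 27.6 ± 7.40 to 7.46 ± 0.870 CPM. Without control replicate 2 or 3, 3 genes of this list rose in place of 5.

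Of 36 further p53 targets tested out of 40 listed, 14 rose and 9 fell (median 0.09), against 26.8% and 29.9% of all genes. Trend-removed, 13 rose and 7 fell (median 0.01), against 21.9% and 22.2%. The genes called were not all the same in both fits. BAX, DDB2, NINJ1 and PLXNB2 rose only in the first fit, and SFN turned lower. PMAIP1, FAS, POLH and FBXO22 were higher only trend-removed. The cytokine LIF (1.14 ± 0.08; 0.86 trend-removed), the immediate-early gene IER5 (0.55 ± 0.09; 0.55) and the BH3-only gene BBC3 (0.93 ± 0.16; 0.43) rose. BBC3 went from 2.94 ± 0.117 to 5.61 ± 0.255 CPM, and its rise did not pass with the trend removed and the replicate block added. The repressor E2F7 (-1.38 ± 0.15; -0.84), the matrix gene THBS1 (-0.58 ± 0.07; -0.10, not past the test) and the autophagy modulator DRAM1 (-0.65 ± 0.11; -0.51) fell.

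Genes that p21 represses through the DREAM complex, 18 cell cycle genes, fell in 11 and rose in 3 (median -0.38), against 29.9% of all genes lower and 26.8% higher. Trend-removed, 10 fell and 5 rose (median -0.21), against 22.2% and 21.9%, and the genes called were not all the same. CENPF (-1.75 ± 0.16; -0.83), KIF23 (-0.84 ± 0.09; -0.36) and PLK4 (-1.69 ± 0.20; -1.06) fell. MYBL2 (0.61 ± 0.09; 0.17) and BIRC5 (0.38 ± 0.09; 0.18) rose. PLK1 rose (0.26 ± 0.09), was lower trend-removed (-0.16) and did not pass without control replicate 2 (0.18) or 3 (0.20) or talazoparib replicate 1 (0.27) or 2 (0.17), or under total count scaling (0.18). Of 15 genes of the ATF4 stress response, which shares SESN2 with p53, 10 rose and 2 fell (median 0.57), against 26.8% and 29.9% of all genes. Trend-removed, 10 rose and 0 fell (median 0.43), against 21.9% and 22.2% of all genes. The 10 were not the same genes in both fits. CEBPB (0.03) and PPP1R15A (0.13) did not pass trend-removed, while PSAT1 and VLDLR (0.69) were higher only there. NUPR1 (2.25 ± 0.23; 2.29), DDIT4 (0.91 ± 0.09; 0.44) and TRIB3 (0.84 ± 0.09; 0.43) rose. NUPR1 was low, at 1.24 ± 0.373 CPM in controls and 5.91 ± 0.590 with talazoparib. ATF3, ASNS and VLDLR did not pass in the first fit. SLC7A11 (-1.04 ± 0.14; -0.10) and PSAT1 (-0.21 ± 0.07; 0.17) fell; SLC7A11 did not pass trend-removed, and PSAT1 was higher there and did not pass without talazoparib replicate 1 (-0.21) or 2 (-0.17).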

How the data were processed

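Total RNA of 6 DU 145 libraries was sequenced. Per the submitters' processing notes, reads were processed with Trimmomatic, HISAT2, Cufflinks and HTSeq on GRCh38; for versions, annotation and strand, nothing is given in the sources used here. The table deposited by the authors holds raw whole-number counts per gene symbol. The authors' FPKM equal count over gene length and column total; for 99.95% of 21065 genes the length this implies is a whole number to within 0.01 nt. The test on counts was that of edgeR 4.0.16 under R 4.3.3 (filterByExpr with a minimum count of 10, TMM, robust quasi-likelihood test, 3 talazoparib against 3 control libraries). SE is the absolute log2 fold change over the square root of F. Members and lists were chosen with earlier results of these data known. All 31 members are accounted for. Of each further list up to 3 genes per direction with the smallest adjusted p are named. Not every gene that this rule names is reported here. Genes of these lists named beyond the rule were picked after their values were seen. Trend removal used GC content of the longest GENCODE 29 transcript and the deposited length, available for 13718 genes (94.9% of those tested), as an offset from natural splines of 5 degrees of freedom. The test was checked on simulated counts for this comparison, where it recovered 40% of genes changed 1.5-fold, 83.0% at 2-fold and 98% at 4-fold among 14295 genes. That simulation held only 47 to 50 changed genes per fold and no trend over GC content or length, and 13 unchanged genes were called. In the data 56.7% of genes were called, so these shares do not carry over to the calls above. DESeq2 1.42.0, limma 3.58.1 (voom, and log2 FPKM with pseudocounts of 0.1 and 1), other scalings and filters, a replicate block and leaving out single libraries served as alternatives. Same-numbered libraries did not deviate together (r = -0.09, -0.17 and 0.00 for numbers 1 to 3), so the numbers were not taken as pairs.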

Additional observations from a re-analysis of the deposited data

How the results depend on the processing

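The count of members that rose was 8 and of members that fell 10 in the main test, and over the alternatives that left out 1 library they ran from 5 to 9 and from 8 to 11. DESeq2, limma-voom, other size factors and other filters gave 8 and 10; total counts and log2 FPKM gave 8 and 12; with the trend removed the counts were 8 and 9. With the replicate number as a replicate block they were 8 and 10, and with the trend also removed 7 and 7. CDKN1A, SESN2, TP53I3, MDM2, MDM4, USP7, RRM2B and PLK2 kept their call and direction in every alternative run. Over all genes, 3873 rose and 4327 fell; the trend removed with the replicate block gave 2567 and 2573, and leaving out 1 library 2622 to 3973 and 3731 to 4576. Same-numbered libraries did not correlate best with each other in any case (r = -0.17 to 0.00), so a call lost under the block is not read as a weaker change.

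In further lists, with the trend removed and then with the replicate block also, regulators that rose numbered 3 and 2 in place of 5, p21-repressed genes that rose 5 with the trend removed in place of 3, other targets that rose 9 with both in place of 14, and ATF4 genes that fell 0 and 0 in place of 2 (1 with the replicate block alone). Leaving out 1 library gave 3 to 5 regulators higher, and 1 to 2 ATF4 genes lower.

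Some log2 fold changes turned sign with the trend removed, and with the replicate block also. Among the members they were -0.13 and -0.13 for FDXR, -0.45 and -0.45 for PLK3, 0.34 and 0.34 for RPS27L, and 0.17 and 0.17 for SESN3. They were also 0.037 and 0.037 for TIGAR, -0.11 and -0.10 for TP53I11, and 0.28 and 0.20 for TP53INP1. Among the genes of further lists named for their smallest adjusted p, they were -0.16 and -0.16 for PLK1, and 0.17 and 0.17 for PSAT1. Other genes of those lists turned too, among them CHEK1 (-0.31, lower, to 0.29, higher) and SFN (0.39, higher, to -0.19, lower), named after their values were seen. PLK3 also turned with total counts (-0.048), log2 FPKM with pseudocounts of 0.1 (-0.048) and 1 (-0.040), and without single libraries (-0.063 to 0.11). CCNG1, CCNG2 and PERP turned without single libraries (-0.18 to 0.39, -0.17 to 0.25 and -0.15 to 0.32). The cause was not tested. Depth limits GDF15 (9 to 31 counts) and SPATA18 (0 counts).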
